A study of Homo sapiens with 14 samples.

Results

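The comparison described here sets human embryonic stem cell cultures induced towards neural crest with the lower dose of CHIR99021 and recombinant human TGF-beta 1 against cultures induced with that dose of CHIR99021 and no addition. It uses 4 of the 14 RNA-seq libraries of the series, chosen by their titles: 2 labelled low Wnt + TGFB and 2 labelled low Wnt. Both groups were made from WA01 (H1), an established human embryonic stem cell line, and were collected on day 5 under the label of induced neural crest cells. Both received 3 µM CHIR99021, which blocks the kinase GSK3 and thereby stabilises beta-catenin and activates the Wnt pathway, from hour 0 to hour 72. The low Wnt + TGFB cultures also received TGF-beta 1 at 5 ng/µL, the unit that the labels give, from hour 0 to hour 120. The medium was DMEM/F12 supplemented with B27 and albumin, on plates coated with Matrigel. Other groups are quoted for their levels. Low Wnt + SB4 had 3 µM CHIR99021 with 10 µM SB431542, a compound that blocks the kinases ALK4, ALK5 and ALK7. High Wnt + TGFB and high Wnt had 10 µM CHIR99021 with and without TGF-beta 1, and hESC is the uninduced line. Each group had 2 libraries. No label states if a pair of libraries stands for 2 cultures or 1, so the p-values reflect the spread of these libraries alone, possibly technical, and every library comes from 1 cell line.

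TGF-beta binds the receptors TGFBR2 and TGFBR1, whereas nodal and activin bind ACVR2A or ACVR2B with ACVR1B or ACVR1C, and nodal also needs a co-receptor such as TDGF1. Both arms phosphorylate SMAD2 and SMAD3, which enter the nucleus with SMAD4 and act on genes together with partners such as FOXH1. In human pluripotent cells this branch sustains NANOG, and stronger or longer activation is the classical route to endoderm; blocking it is a standard step in making neural tissue. In neural crest, TGF-beta is best known for directing cells to smooth muscle.

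The 4 libraries held 13452564 and 16167956 counted reads in low Wnt + TGFB and 16654777 and 16764513 in low Wnt, within the range of 10879287 to 19106827 over the series. Levels are given as CPM, the usual depth-scaled counts, on library sizes adjusted by TMM (trimmed mean of M values), for replicate 1 and then replicate 2 of each group. A gene passed the test, or was called, at an adjusted p under 0.05. The p-values are from the quasi-likelihood test of edgeR, adjusted by Benjamini-Hochberg over all 16149 genes tested. Where a gene list is given with 0 calls in a direction, DESeq2 also called 0, and edgeR had 0 members at an unadjusted p under 0.05, with the exception of 1 paraxial mesoderm gene. Log2 fold changes are low Wnt + TGFB over low Wnt, with their standard error (SE).

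Set against the label of neural crest, the defining markers SOX10 and TFAP2A were low beside the neural progenitor marker SOX1 in both groups. On the TPM scale, which corrects for gene length, the mean level of SOX10 was 6.21 TPM in low Wnt + TGFB, 3.78 TPM in low Wnt and 4.30 TPM in hESC. That of TFAP2A was 10.3 TPM in low Wnt + TGFB, 2.2 TPM in low Wnt and 0.0811 TPM in hESC. The mean level of SOX1, a marker of the neural plate, was 27.3 TPM in low Wnt + TGFB, 115.1 TPM in low Wnt and 0.191 TPM in hESC. In low Wnt the mean SOX10 level was thus not above that of the uninduced cells, whereas those of TFAP2A and SOX1 were. Of the other crest genes, NR2F1 had 107 and 100.3 CPM in low Wnt, against 0.296 and 0 CPM in hESC, and NR2F2 had 379 and 316 CPM in low Wnt, against 0.074 and 0 CPM in hESC.

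Adding TGF-beta 1 at the lower CHIR99021 dose moved RNA levels at 4196 genes, 26.0% of those tested. Of these, 2220 (13.7%) rose and 1976 (12.2%) fell. The count was 2347 without low Wnt + TGFB replicate 2 and 2724 without low Wnt replicate 1. The rises were steeper: 1199 genes (7.42%) rose and 455 (2.82%) fell by at least 1 on the log2 scale. With library totals as the only scaling the split was 2787 higher and 1383 lower, and the median log2 fold change of all genes moved to 0.0765 from -0.0055. The 2 libraries of 1 group lay wholly above or below those of the other at 10393 genes (64.4%), 5113 higher (31.7%) and 5280 lower (32.7%). Among genes at 10 CPM or more, the steepest rises were those of TBX3, S100A14, SOX17, GATA4 and EPSTI1, and the steepest falls those of IGF2, VCAM1, NDE1, ATP2C2 and DLL1.

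**Figure D1:**
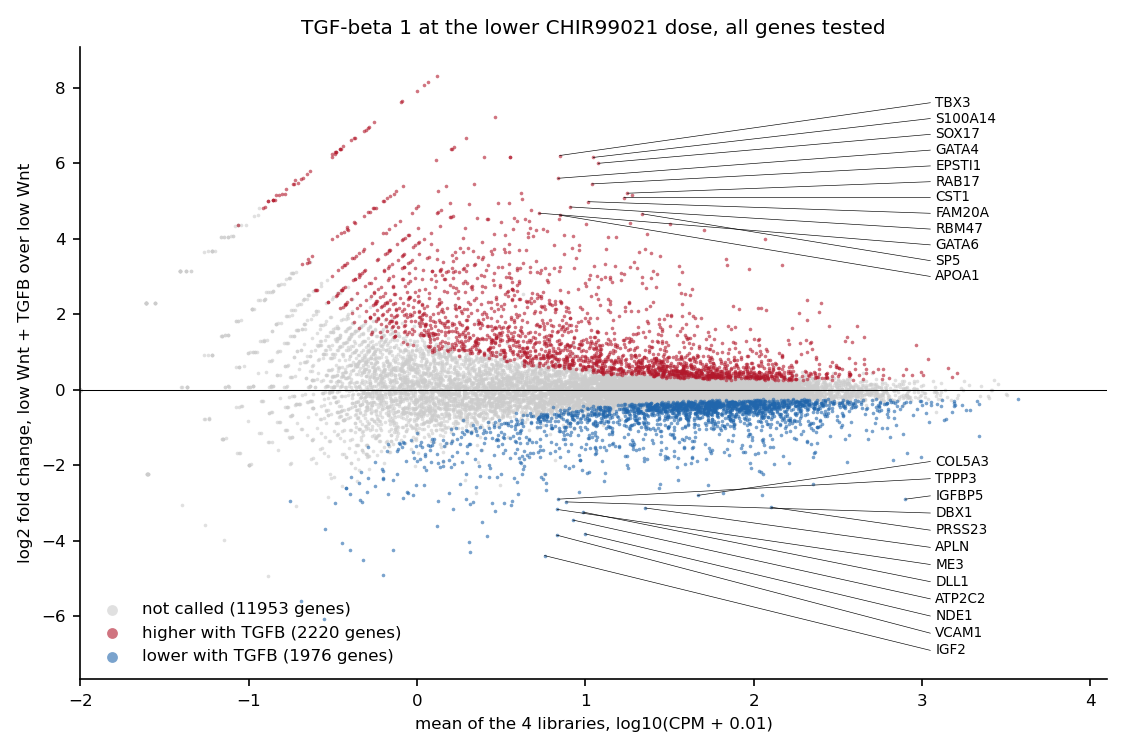
Mean level of the 4 libraries, as log10(CPM + 0.01), against the log2 fold change of low Wnt + TGFB over low Wnt for each of the 16149 genes tested (1 point a gene; red higher, blue lower, grey not called). The 12 steepest rises and 12 steepest falls among called genes at 10 CPM or more are named; rises reach 6.2 and falls -4.39.

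The stretch of DNA just before NODAL, CER1, NANOG and OTX2, which all rose, is shown here because nodal and activin targets were the gene list with the second highest median change, after endoderm. The windows are the 250 bases upstream of the RefSeq start on GRCh38.p14, given 5′ to 3′ on the gene's strand, in lower case. Capitals mark the SMAD-binding core CAGAC and the FOXH1-type motif TGTNNATT on either strand; no marked motifs overlap. They lie at chr10:70441682-70441931 (minus strand) for NODAL, chr9:14722734-14722983 (minus) for CER1, chr12:7789152-7789401 (plus) for NANOG and chr14:56810480-56810729 (minus) for OTX2.
NODAL: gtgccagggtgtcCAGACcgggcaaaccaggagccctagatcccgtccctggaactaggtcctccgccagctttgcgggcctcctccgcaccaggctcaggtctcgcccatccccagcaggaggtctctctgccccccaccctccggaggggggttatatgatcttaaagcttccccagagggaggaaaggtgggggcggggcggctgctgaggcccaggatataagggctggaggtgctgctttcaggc
CER1: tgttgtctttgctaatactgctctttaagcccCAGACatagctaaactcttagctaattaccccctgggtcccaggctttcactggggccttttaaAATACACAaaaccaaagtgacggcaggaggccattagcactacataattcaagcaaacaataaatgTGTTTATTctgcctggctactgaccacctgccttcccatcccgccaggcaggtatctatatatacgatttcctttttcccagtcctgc
NANOG: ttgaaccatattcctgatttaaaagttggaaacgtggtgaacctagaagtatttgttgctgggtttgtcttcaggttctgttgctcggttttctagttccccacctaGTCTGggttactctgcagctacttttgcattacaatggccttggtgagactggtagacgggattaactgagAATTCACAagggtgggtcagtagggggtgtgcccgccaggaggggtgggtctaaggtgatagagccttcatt
OTX2: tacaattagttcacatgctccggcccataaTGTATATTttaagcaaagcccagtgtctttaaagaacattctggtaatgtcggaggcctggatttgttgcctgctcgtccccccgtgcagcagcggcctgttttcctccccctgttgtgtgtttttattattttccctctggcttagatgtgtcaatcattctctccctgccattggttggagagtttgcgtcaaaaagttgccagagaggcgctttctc
CAGAC stood 1 time in the NODAL, CER1 and NANOG windows and 0 times in that of OTX2. TGTNNATT stood 2 times in the CER1 window, 1 time each in those of NANOG and OTX2, and 0 times in that of NODAL. Among the 27305 genes with a window in the RefSeq table, 37.8% held CAGAC and 9.9% held TGTNNATT. Because 11642 of the 16149 tested genes, and 9 of the 16 tested nodal and activin targets, had a window, a comparison of motif shares between called and other genes is void, and no match or absence here speaks to binding.

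Among the ligands, NODAL (chr10:70431936-70441709) had 6.47 and 7.67 CPM in low Wnt + TGFB, against 0 and 0.179 CPM in low Wnt. Both libraries with TGF-beta 1 were far above both without it, with summed counts of 222 reads in low Wnt + TGFB and 3 in low Wnt. The ratio was 78.8-fold (95% interval 26.6 to 385), an interval that covers counting error only. GDF3, a nodal-related ligand of pluripotent cells, had 0.498 and 0.937 CPM in low Wnt + TGFB, against 0 and 0.0598 CPM in low Wnt, a ratio of 24.5-fold (95% interval 3.98 to 1008). TGFB2 and TGFB3 fell. TGFB2 had 4.55 and 2.69 CPM in low Wnt + TGFB, against 10.4 and 8.97 CPM in low Wnt (-1.44 ± 0.21, adjusted p = 8.9e-05), and TGFB3 had 0.996 and 0.995 CPM in low Wnt + TGFB, against 1.95 and 2.57 CPM in low Wnt (-1.18 ± 0.36, adjusted p = 0.024). TGFB1 itself, the added protein's own gene, had 14.3 and 20.2 CPM in low Wnt + TGFB, against 14.8 and 11.9 CPM in low Wnt and did not pass (0.38 ± 0.19, adjusted p = 0.16). Of the 10 tested ligand genes 2 rose, 2 fell and 6 did not pass, a called share of 40% beside 26.0% over all genes. The TGFB3 call was lost with DESeq2 and without low Wnt replicate 2 or either low Wnt + TGFB replicate, and the GDF3 call without low Wnt + TGFB replicate 2.

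Among receptors, 3 of 9 tested rose and 3 fell, a called share of 66.7% beside 26.0% over all genes. The co-receptor TDGF1 was the steepest rise and the co-receptor TGFBR3 the steepest fall. TDGF1, the nodal co-receptor also called Cripto, had 196 and 242 CPM in low Wnt + TGFB, against 10.0 and 17.4 CPM in low Wnt (3.99 ± 0.18, adjusted p = 4.8e-10); the groups did not overlap, although the low Wnt libraries differed from each other. TGFBR3, the co-receptor betaglycan that presents TGF-beta 2, had 38.8 and 35.4 CPM in low Wnt + TGFB, against 157 and 156 CPM in low Wnt (-2.08 ± 0.10, adjusted p = 5.7e-10). ACVR1C, a type I receptor of nodal, and ENG, the co-receptor endoglin, also rose from low levels, by 1.85 ± 0.33 and 1.73 ± 0.52. TGFBR1 and ACVR2A fell by 0.43 ± 0.12 and 0.40 ± 0.13. The TGFBR1 and ACVR2A calls were both lost, leaving 1 of the 3 falls among 9 tested receptor genes, with library totals alone and without low Wnt replicate 2 or either low Wnt + TGFB replicate. ACVR2A was also lost with DESeq2 and without low Wnt replicate 1, and the ENG call without low Wnt replicate 2 or low Wnt + TGFB replicate 2.

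Downstream, FOXH1, the nuclear partner of the SMADs at nodal targets, had 36.9 and 47.5 CPM in low Wnt + TGFB, against 8.22 and 8.67 CPM in low Wnt (2.32 ± 0.16, adjusted p = 2.5e-08), and TGIF1, a repressor that binds them, had 149 and 172 CPM in low Wnt + TGFB, against 75.9 and 80.6 CPM in low Wnt (1.04 ± 0.12, adjusted p = 5.2e-06). SMAD3 had 85.9 and 73.4 CPM in low Wnt + TGFB, against 148 and 138 CPM in low Wnt (-0.85 ± 0.11, adjusted p = 2.1e-05), and SMAD2 had 87.1 and 88 CPM in low Wnt + TGFB, against 102 and 97.9 CPM in low Wnt and did not pass (-0.19 ± 0.09, adjusted p = 0.11). SMAD4 and TGIF2 were called lower by small amounts, -0.26 ± 0.09 and -0.50 ± 0.11. The SMAD4 call, with an adjusted p of 0.0497 in edgeR, was lost with DESeq2, with either other scaling and on leaving out any 1 of the 4 libraries.

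Feedback inhibitors rose at 7 of 13 tested genes and fell at 0, with a median log2 fold change of 1.57 against -0.0055 over all genes. SKIL, a repressor of SMAD complexes, had 126 and 140.0 CPM in low Wnt + TGFB, against 25.3 and 35.2 CPM in low Wnt (2.13 ± 0.20, adjusted p = 6.8e-07). FST, the activin-binding protein follistatin, had 305 and 291 CPM in low Wnt + TGFB, against 68 and 78 CPM in low Wnt (2.03 ± 0.12, adjusted p = 4.9e-09). PMEPA1, which sequesters SMADs, had 9.25 and 14.8 CPM in low Wnt + TGFB, against 2.5 and 2.27 CPM in low Wnt, and SMAD7, which blocks the type I receptors, had 9.82 and 16.6 CPM in low Wnt + TGFB, against 3.78 and 5.14 CPM in low Wnt; their changes were 2.33 ± 0.26 and 1.57 ± 0.29. BAMBI, a decoy receptor, rose by 2.11 ± 0.18. The secreted nodal inhibitor CER1 had 3.2 and 2.58 CPM in low Wnt + TGFB, against 0 and 0.12 CPM in low Wnt, a ratio of 47.4-fold (95% interval 12.7 to 397). LEFTY1 had 3.91 and 3.57 CPM in low Wnt + TGFB, against 0.426 and 0.12 CPM in low Wnt, and its neighbour and near copy LEFTY2 had 4.05 and 2.75 CPM in low Wnt + TGFB, against 2.25 and 2.81 CPM in low Wnt. The first passed and the second did not, but reads shared by near copies may have been left out or misplaced in counting, so the split between them is uncertain. SMURF1, SMURF2, SKI, FSTL3 and LDLRAD4 did not pass, with log2 fold changes between -0.029 and 0.54.

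Proteins that store and release latent TGF-beta changed both ways, 3 of 11 tested higher and 3 lower. This was a called share of 54.5% beside 26.0% over all genes. ITGB8, whose integrin activates latent TGF-beta, had 34.1 and 30.7 CPM in low Wnt + TGFB, against 99.3 and 104 CPM in low Wnt (-1.65 ± 0.15, adjusted p = 5.8e-07), and LTBP2 had 6.83 and 7.32 CPM in low Wnt + TGFB, against 27.7 and 29 CPM in low Wnt (-2.0 ± 0.16, adjusted p = 1.4e-07). FBN1 fell by 0.93 ± 0.14, while FBN2, the fibrillin of early development, rose by 0.98 ± 0.14. THBS1, the activator thrombospondin, had 50.0 and 107 CPM in low Wnt + TGFB, against 16 and 43.3 CPM in low Wnt; it was called (1.41 ± 0.41, adjusted p = 0.018), but its libraries within each group differed by more than those of most genes named here. LTBP1, LTBP3, LTBP4, ITGAV and NRROS did not pass. The THBS1 call was lost with DESeq2 and without low Wnt replicate 1 or low Wnt + TGFB replicate 2. In each of these settings 1 rise of the list was left, and without low Wnt + TGFB replicate 1 there were 5.

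**Figure D2:**
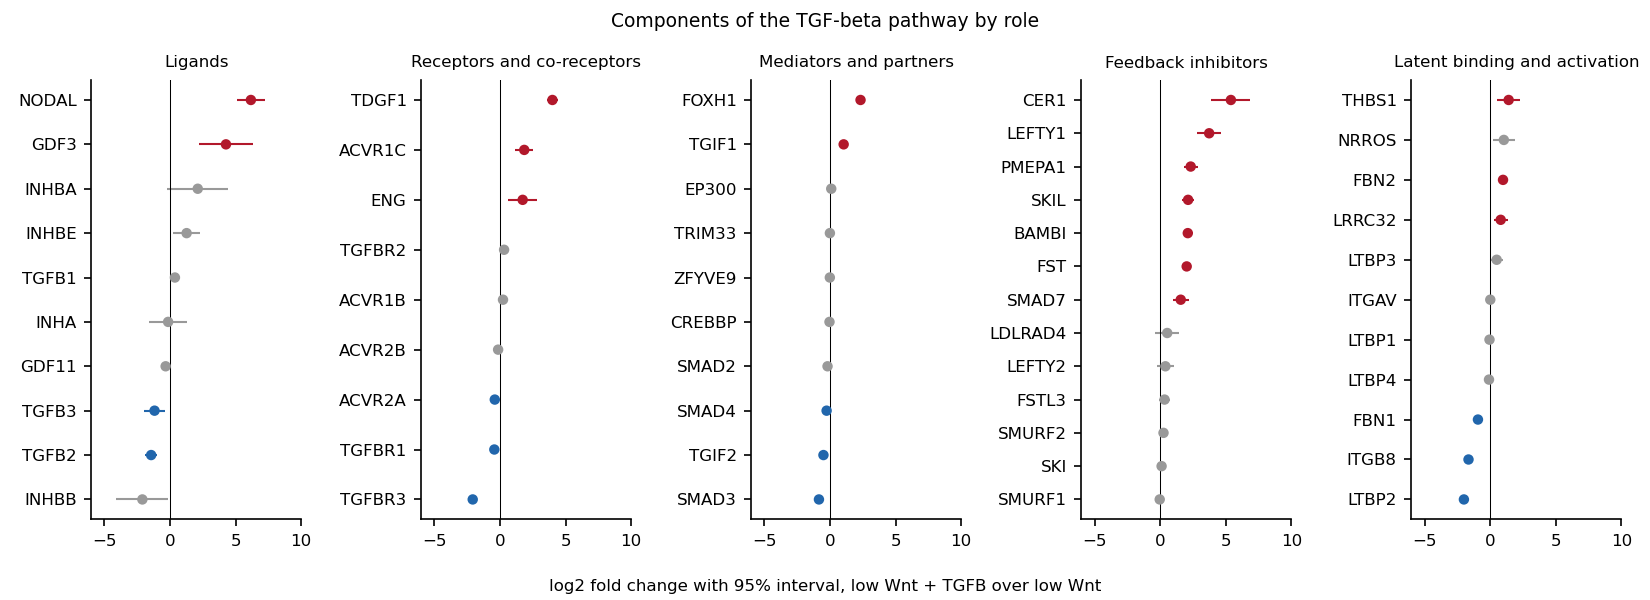
Fitted log2 fold change (points) with its 95% interval (lines) of low Wnt + TGFB over low Wnt for tested components of the TGF-beta pathway, by role (red called higher, blue called lower, grey not called). NODAL, GDF3, CER1 and TDGF1 lie far to the right and TGFBR3 and LTBP2 at about -2.0; the points of NODAL, GDF3, CER1 and INHBA rest on 3 or fewer reads in low Wnt.

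Targets of nodal and activin rose at 14 of 16 tested genes and fell at 0, with a median of 3.91. OTX2, the head homeobox gene, had 168 and 169.9 CPM in low Wnt + TGFB, against 16.5 and 20.5 CPM in low Wnt (3.19 ± 0.17, adjusted p = 2.0e-09), and NANOG, the pluripotency factor, had 15.4 and 18.9 CPM in low Wnt + TGFB, against 0.731 and 1.67 CPM in low Wnt (3.82 ± 0.28, adjusted p = 7.5e-08). In hESC, OTX2 had 33.1 and 37.8 CPM and NANOG 80.6 and 93.5 CPM. EOMES, which starts mesendoderm, had 5.34 and 10.8 CPM in low Wnt + TGFB, against 0.0609 and 0.359 CPM in low Wnt (5.21 ± 0.61, adjusted p = 1.1e-05). GSC, the organiser gene goosecoid, and MIXL1 rose at low levels, GSC to 1.49 and 1.46 CPM in low Wnt + TGFB, against 0.365 and 0.179 CPM in low Wnt. The GSC call was lost with DESeq2 and without low Wnt replicate 2, and that of MIXL1 without either low Wnt replicate or low Wnt + TGFB replicate 2. TBXT, brachyury, had 0.64 and 0.293 CPM in low Wnt + TGFB, against 0.122 and 0.239 CPM in low Wnt and did not pass (1.28 ± 0.63, adjusted p = 0.15), as did LEFTY2. The summed level of the list was 445 and 543 CPM in low Wnt + TGFB, 4.21 and 2.88 CPM in low Wnt + SB4 and 32.8 and 46.3 CPM in low Wnt. In hESC it was 1238 and 1255 CPM. TDGF1 and OTX2 held most of the sum in low Wnt + TGFB.

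All 11 tested endoderm genes rose, with a median of 4.68, or 4.62 with genes near 0 reads set to the floor of 3 counts over a group. SOX17, FOXA2, GATA6 and CER1, among others, were also in the list of nodal and activin targets, so these lists are not independent. The nodal list also shared TDGF1 and NANOG with pluripotency, OTX2 with forebrain and midbrain, and LEFTY1, LEFTY2 and CER1 with feedback inhibitors. SOX17 (chr8:54457935-54460896), a defining factor of definitive endoderm, had 14.7 and 32.4 CPM in low Wnt + TGFB, against 0.183 and 0.538 CPM in low Wnt (6.00 ± 0.52, adjusted p = 7.5e-07). FOXA2, a pioneer factor of endoderm and of the floor plate, had 12.7 and 25.6 CPM in low Wnt + TGFB, against 0.975 and 0.837 CPM in low Wnt (4.40 ± 0.45, adjusted p = 1.5e-06). GATA4, a factor of endoderm and heart, had 7.9 and 19.1 CPM in low Wnt + TGFB, against 0.183 and 0.359 CPM in low Wnt. Its relative GATA6 had 6.33 and 14.1 CPM in low Wnt + TGFB, against 0.426 and 0.359 CPM in low Wnt. APOA1, an apolipoprotein of liver and gut lineages, had 6.54 and 20.5 CPM in low Wnt + TGFB, against 0.487 and 0.598 CPM in low Wnt. In all 5 of these genes replicate 2 of low Wnt + TGFB was about 2 times or more above replicate 1, and each of the 2 was far above both low Wnt libraries. The summed level of the list was 98.6 and 175 CPM in low Wnt + TGFB, 25.9 and 27.6 CPM in low Wnt and 41.1 and 53.7 CPM in hESC. SOX17 had 0 CPM in each library of low Wnt + SB4 and 0.074 and 0.0848 CPM in hESC. In bulk RNA, more cells of a type and more RNA per cell cannot be told apart, so these levels do not say how many cells carried endoderm RNA. What part such cells have in the changes of other gene groups was not tested.

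**Figure D3:**
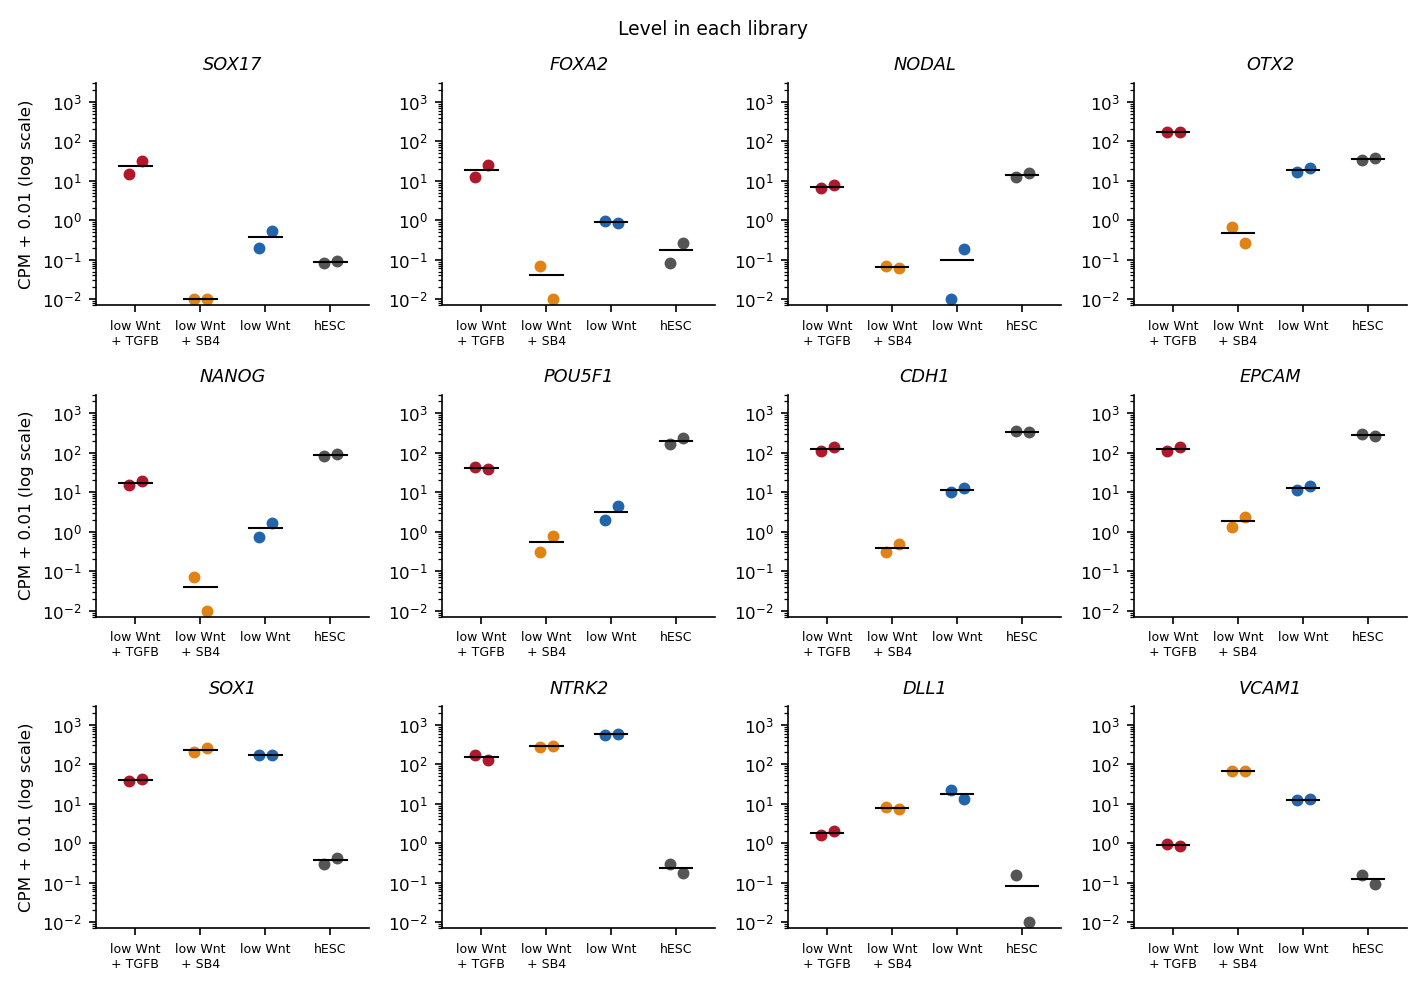
Level of 12 genes in each library of low Wnt + TGFB, low Wnt + SB4, low Wnt and hESC, as CPM + 0.01 on a log axis (points are libraries, lines the mean of 2; a library at 0 sits at 0.01). The first 8 genes are higher in low Wnt + TGFB than in low Wnt, and the last 4, from SOX1 on, are lower.

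Pluripotency genes rose at 15 of 21 tested and fell at 1, with a median of 1.38. POU5F1, the central pluripotency factor OCT4, had 44.9 and 38.9 CPM in low Wnt + TGFB, against 1.95 and 4.37 CPM in low Wnt (3.72 ± 0.28, adjusted p = 5.3e-08); the annotation lists it on 7 contigs, so its count may be incomplete. L1TD1, an RNA-binding protein of stem cells, had 245 and 293 CPM in low Wnt + TGFB, against 23.3 and 31.2 CPM in low Wnt. ZSCAN10, a zinc finger factor of stem cells, had 54.3 and 80.7 CPM in low Wnt + TGFB, against 7.98 and 7.47 CPM in low Wnt. DNMT3B, the de novo DNA methyltransferase, had 623 and 685 CPM in low Wnt + TGFB, against 241 and 259.8 CPM in low Wnt (1.38 ± 0.09, adjusted p = 1.2e-08). These levels stayed under the stem cell ones: POU5F1 had 164 and 231 CPM, L1TD1 975 and 805 CPM and DNMT3B 2026 and 2189 CPM in hESC. SOX2, shared by pluripotent and neural cells, was the member called lower (-0.37 ± 0.12, adjusted p = 0.028). That call was lost with library totals alone and on leaving out low Wnt replicate 1 or either low Wnt + TGFB replicate; SOX2 lies within the longer transcript SOX2-OT, so its count may be incomplete.

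Epithelial genes rose at 16 of 21 tested and fell at 0, with a median of 2.74. CDH1, E-cadherin, had 109.8 and 142 CPM in low Wnt + TGFB, against 10.3 and 12.6 CPM in low Wnt (3.46 ± 0.16, adjusted p = 4.3e-10), and EPCAM, an epithelial adhesion molecule, had 109 and 144 CPM in low Wnt + TGFB, against 11.3 and 14.4 CPM in low Wnt (3.30 ± 0.19, adjusted p = 3.6e-09). CLDN7, a tight junction claudin, and ESRP1, an epithelial splicing regulator, rose by 4.04 ± 0.22 and 3.27 ± 0.22, and the keratin KRT18 by 2.16 ± 0.15. Genes of the mesenchymal state changed both ways: 4 of 12 tested rose and 5 fell, with a median of -0.07. FN1, fibronectin, was among the rises. The repressors of E-cadherin ZEB1 and ZEB2 were lower: ZEB1 had 15.6 and 12.1 CPM in low Wnt + TGFB, against 35.7 and 38.2 CPM in low Wnt (-1.42 ± 0.13, adjusted p = 6.8e-07), and ZEB2 fell by 0.83 ± 0.12. CDH2, N-cadherin, fell by 0.49 ± 0.09 and CDH11, a mesenchymal cadherin, by 1.08 ± 0.10, whereas CDH6 rose. CDH6, a cadherin of early crest and kidney, had 114 and 135 CPM in low Wnt + TGFB, against 25.6 and 27.9 CPM in low Wnt. SNAI2 had 19.8 and 15.7 CPM in low Wnt + TGFB, against 17.8 and 19 CPM in low Wnt and did not pass. TWIST1 was called higher at under 1 CPM, a call lost with DESeq2 and without low Wnt replicate 1 or low Wnt + TGFB replicate 2. CDH1 had 352 and 328 CPM and EPCAM 300.3 and 267 CPM in hESC, both above their low Wnt levels.

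The genes usually read as a TGF-beta response changed both ways: 8 of 26 tested rose and 8 fell, with a median of 0.09. FN1, fibronectin, had 491 and 759 CPM in low Wnt + TGFB, against 192 and 198 CPM in low Wnt (1.68 ± 0.16, adjusted p = 5.8e-07); replicate 2 of low Wnt + TGFB was the highest, and the groups did not overlap. TGFBI, named for its induction by TGF-beta, rose by 0.77 ± 0.19, a call lost without low Wnt replicate 2. COL1A2, a chain of type I collagen, had 272 and 282 CPM in low Wnt + TGFB, against 651 and 709 CPM in low Wnt (-1.30 ± 0.09, adjusted p = 3.3e-08), and COL1A1, its partner chain, fell by 0.37 ± 0.10, a call lost without low Wnt replicate 2 or low Wnt + TGFB replicate 1. TIMP3, an inhibitor of metalloproteinases, had 71.6 and 63.2 CPM in low Wnt + TGFB, against 255 and 261 CPM in low Wnt (-1.94 ± 0.12, adjusted p = 7.5e-09). The count of rises and falls was 5 and 5 without low Wnt replicate 1, and 3 and 4 without low Wnt + TGFB replicate 2.

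Contractile genes of smooth muscle rose at 6 and fell at 3 of 15 tested, with a median of 0.29. This was a called share of 60% beside 26.0% over all genes. ACTA2, smooth muscle actin, had 21.1 and 17.2 CPM in low Wnt + TGFB, against 31.5 and 28.1 CPM in low Wnt (-0.65 ± 0.13, adjusted p = 0.0013), and TAGLN had 208 and 241 CPM in low Wnt + TGFB, against 148 and 178 CPM in low Wnt and missed the threshold (0.46 ± 0.17, adjusted p = 0.052). The TAGLN rise did pass with DESeq2, with either other scaling and with no filter. It also passed with only the groups compared, with a replicate block and without the hESC libraries. CALD1 and MYL9 rose by 0.59 ± 0.10 and 0.67 ± 0.12, and the cofactor TGFB1I1 rose from a low level, with 1.71 and 2.69 CPM in low Wnt + TGFB, against 0.244 and 0.239 CPM in low Wnt. Without low Wnt replicate 1, or without low Wnt + TGFB replicate 2, 1 of the 3 falls was left. Among genes of mural cells and vessels, 6 of 14 rose and 3 fell, a called share of 64.3% beside 26.0% over all genes. FLT1, a receptor of VEGF, had 39.9 and 36.8 CPM in low Wnt + TGFB, against 3.23 and 2.87 CPM in low Wnt, and hESC had 177 and 144 CPM. VCAM1 (chr1:100719640-100739046), an adhesion molecule, had 0.925 and 0.82 CPM in low Wnt + TGFB, against 12.4 and 12.9 CPM in low Wnt (-3.85 ± 0.20, adjusted p = 1.2e-09), and PDGFRB, a receptor of mesenchymal and mural cells, fell by 0.83 ± 0.10. In a separate list of endothelium and blood, 3 of 8 tested rose and 0 fell, a share of 37.5% beside 26.0% over all genes. With DESeq2, 1 rise was left. Its member KDR, the main receptor of VEGF, had 39.5 and 31.6 CPM in low Wnt + TGFB, against 3.65 and 3.17 CPM in low Wnt, and hESC had 188 and 166 CPM.

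In the extracellular matrix, glycoproteins and proteoglycans rose at 15 of 23 tested genes and fell at 2, with a median of 0.64; 8 of the rises were left without low Wnt replicate 1, and 8 without low Wnt + TGFB replicate 2. GPC4, a heparan sulfate proteoglycan, had 329 and 364 CPM in low Wnt + TGFB, against 63.9 and 68.8 CPM in low Wnt (2.38 ± 0.12, adjusted p = 1.0e-09). Its relative GPC3 and VCAN, versican, rose by 1.64 ± 0.10 and 1.41 ± 0.17. NID2, a basement membrane nidogen, had 75.1 and 60.4 CPM in low Wnt + TGFB, against 231 and 229 CPM in low Wnt (-1.76 ± 0.11, adjusted p = 6.0e-09). Collagens were split, 9 of 21 higher and 5 lower. COL3A1 and COL6A3 rose from low levels by 1.65 ± 0.19 and 1.57 ± 0.21, while COL5A3 fell by 2.80 ± 0.17 and COL2A1, the cartilage collagen, by 0.65 ± 0.10; without low Wnt + TGFB replicate 1, 3 of the 5 falls were left. Enzymes that cross-link or hydroxylate collagen were called at 3 of 14, a share of 21.4% beside 26.0% over all genes, with PLOD2 higher and P4HA1 and LOXL3 lower; the LOXL3 call was lost without low Wnt + TGFB replicate 2. Integrins and laminins were called at 8 of 23, a share of 34.8% beside 26.0% over all genes, with ITGB5 (0.99 ± 0.12) and LAMB1 (0.73 ± 0.09) among 4 rises and LAMB2 (-0.47 ± 0.09) among 4 falls; the falls were 2 without low Wnt + TGFB replicate 2, and the rises 7 with library totals alone and 8 with only the groups compared. Metalloproteinases and their inhibitors rose at 7 of 14 and fell at 2. MMP24 had 16.9 and 21.2 CPM in low Wnt + TGFB, against 1.89 and 2.75 CPM in low Wnt, and MMP14 and MMP15, both membrane-bound, rose by 1.03 ± 0.11 and 1.1 ± 0.14; without low Wnt + TGFB replicate 2, 4 of the 7 were left.

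Genes of central nervous system progenitors fell at 8 of 14 tested and rose at 3, with a median of -1.29. SOX1 had 38.3 and 41.7 CPM in low Wnt + TGFB, against 177 and 176 CPM in low Wnt (-2.14 ± 0.14, adjusted p = 1.2e-08). PAX6, a neural and eye regulator, had 19.1 and 11.8 CPM in low Wnt + TGFB, against 54.1 and 50.0 CPM in low Wnt (-1.77 ± 0.18, adjusted p = 1.7e-06), and NES, the progenitor filament nestin, had 1392 and 1208 CPM in low Wnt + TGFB, against 3298 and 2810.1 CPM in low Wnt (-1.23 ± 0.12, adjusted p = 6.8e-07). DBX1, which marks an intermediate band of the neural tube, had 1.49 and 1.93 CPM in low Wnt + TGFB, against 13.9 and 13.3 CPM in low Wnt. LHX5, a gene of the anterior neural plate, was among the rises, with 16.1 and 24.9 CPM in low Wnt + TGFB, against 3.17 and 3.11 CPM in low Wnt (2.71 ± 0.30, adjusted p = 6.0e-06). The 3 rises became 1 without low Wnt replicate 1, and 1 without low Wnt + TGFB replicate 2. The summed level of the list was 1509 and 1342 CPM in low Wnt + TGFB and 3669.8 and 3160.0 CPM in low Wnt. No tested gene of early neurons rose, and 6 of 11 fell, with a median of -1.14. TUBB3, neuronal tubulin, had 172 and 179 CPM in low Wnt + TGFB, against 288 and 300.1 CPM in low Wnt (-0.74 ± 0.15, adjusted p = 0.0014). ELAVL4, DCX, ONECUT1 and ONECUT2 fell by 1.19 to 2.70. The ONECUT1 call was lost without low Wnt replicate 2 or low Wnt + TGFB replicate 2.

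Notch genes fell at 7 of 16 tested and rose at 3, a called share of 62.5% beside 26.0% over all genes. JAG1, a Notch ligand, had 133 and 95.8 CPM in low Wnt + TGFB, against 325 and 271 CPM in low Wnt (-1.38 ± 0.18, adjusted p = 1.8e-05). DLL3, which dampens Notch in the signalling cell, had 6.54 and 7.32 CPM in low Wnt + TGFB, against 33.2 and 24.9 CPM in low Wnt. DLL1, a ligand of neurogenic and somitic cells, had 1.64 and 2.05 CPM in low Wnt + TGFB, against 22 and 13.2 CPM in low Wnt (-3.24 ± 0.66, adjusted p = 0.0015); it is listed on 2 contigs. The targets HES4, HEYL and NRARP fell by 1.97 ± 0.26, 1.31 ± 0.19 and 1.01 ± 0.16. Neurotrophin, ephrin and guidance genes fell at 9 of 21 and rose at 5. NTRK2, the receptor of BDNF, had 175 and 131 CPM in low Wnt + TGFB, against 565 and 574 CPM in low Wnt (-1.9 ± 0.15, adjusted p = 7.7e-08), and the ephrins EFNB2 and EFNB3 fell by 1.21 ± 0.09 and 1.52 ± 0.11. The semaphorins SEMA3A and SEMA6A rose by 1.45 ± 0.13 and 1.27 ± 0.11. The 5 rises became 3 without low Wnt + TGFB replicate 2.

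Forebrain and midbrain genes rose at 5 of 9 tested and fell at 1, with a median of 2.66. DMBX1 had 17.3 and 15 CPM in low Wnt + TGFB, against 1.22 and 1.61 CPM in low Wnt (3.50 ± 0.31, adjusted p = 2.7e-07). FEZF1, a forebrain repressor, had 3.34 and 3.98 CPM in low Wnt + TGFB, against 0.67 and 0.478 CPM in low Wnt. Its relative FEZF2 was the member that fell, with 0.213 and 0.644 CPM in low Wnt + TGFB, against 4.08 and 3.29 CPM in low Wnt (-3.03 ± 0.51, adjusted p = 0.00049). HOX genes of paralogue groups 1 to 5, which pattern the hindbrain and its crest, were called lower at 3 of 15, and at 0 higher. This share of 20% stands beside 26.0% called and 12.2% called lower over all genes. The summed level of the list was 30.1 and 16.6 CPM in low Wnt + TGFB, against 49.8 and 46.2 CPM in low Wnt. HOXA2 had 12.4 and 8.78 CPM in low Wnt + TGFB, against 29.8 and 25.4 CPM in low Wnt (-1.39 ± 0.20, adjusted p = 7.6e-05). HOXB2 had 1.99 and 2.63 CPM in low Wnt + TGFB, against 5.85 and 5.56 CPM in low Wnt. The 3 calls became 6 without low Wnt + TGFB replicate 1. For groups 6 to 9, edgeR called 0 of 12, and 1 without low Wnt + TGFB replicate 1, but the libraries of low Wnt + TGFB disagreed, with summed levels of 16.8 and 3.28 CPM, against 11 and 10.9 CPM in low Wnt. NR2F1, a COUP transcription factor of hindbrain and crest, had 35.9 and 33.8 CPM in low Wnt + TGFB, against 107 and 100.3 CPM in low Wnt. Its relative NR2F2 had 116 and 101 CPM in low Wnt + TGFB, against 379 and 316 CPM in low Wnt.

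Neural crest specifiers rose at 6 of 18 tested and fell at 3, with a median of 0.14. FOXD3, a factor of crest and of stem cells, had 7.61 and 9.49 CPM in low Wnt + TGFB, against 0.853 and 0.179 CPM in low Wnt (4.04 ± 0.39, adjusted p = 9.4e-07), and its hESC level was 32 and 41 CPM. TFAP2A, an early crest and border factor, had 12 and 19.1 CPM in low Wnt + TGFB, against 3.84 and 3.17 CPM in low Wnt. ETS1, a factor of cranial crest, had 31.7 and 34.3 CPM in low Wnt + TGFB, against 13.8 and 15.8 CPM in low Wnt. SOX10 had 6.19 and 6.5 CPM in low Wnt + TGFB, against 4.26 and 3.83 CPM in low Wnt and did not pass (0.65 ± 0.28, adjusted p = 0.096), nor did SOX9 (-0.31 ± 0.21, adjusted p = 0.30) or TFAP2B (-0.17 ± 0.35, adjusted p = 0.77). The 3 falls were those of NR2F1, NR2F2 and SOX5, which was chosen after its values were seen (-0.49 ± 0.16, adjusted p = 0.028). At the neural plate border, 8 of 10 tested rose. PAX3, a border and crest factor, had 16.4 and 15.5 CPM in low Wnt + TGFB, against 8.59 and 6.64 CPM in low Wnt (1.07 ± 0.14, adjusted p = 3.5e-05). MSX2, a BMP target, had 6.4 and 14.8 CPM in low Wnt + TGFB, against 1.64 and 1.32 CPM in low Wnt. The 8 became 5 without low Wnt replicate 2 and 4 without low Wnt + TGFB replicate 2. Ectomesenchyme genes were called at 3 of 10, a share of 30% near the 26.0% over all genes. The 1 rise, that of PDGFRA (0.46 ± 0.13), was lost with only the groups compared and without low Wnt replicate 1 or either low Wnt + TGFB replicate. Among the falls, BARX1, a jaw and stomach factor, had 2.99 and 1.93 CPM in low Wnt + TGFB, against 18 and 13.6 CPM in low Wnt. Genes of melanocytes and glia were called at 7 of 11, ERBB3, the neuregulin receptor, rising by 1.25 ± 0.12 and PMEL falling by 0.65 ± 0.10. The 4 rises in that list became 1 or 2 without low Wnt replicate 1, low Wnt replicate 2 or low Wnt + TGFB replicate 1.

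Markers of other lineages were also counted. Of axial progenitor and primitive streak genes, 5 of 15 rose, EOMES and SP5 among them, or 3 without low Wnt replicate 2 and 3 without low Wnt + TGFB replicate 2. The called share of the axial and streak genes was 33.3%, beside 26.0% called and 13.7% called higher over all genes. Of paraxial mesoderm genes edgeR called 0 of 11. UNCX, a somite gene with 0.285 and 0.0586 CPM in low Wnt + TGFB, against 0 CPM in each library of low Wnt, was called with library totals alone, with no filter and without low Wnt + TGFB replicate 2. Genes listed for trophoblast and amnion rose at 5 of 9 and fell at 1, a called share of 66.7% beside 26.0% over all genes. The 1 fall was lost with DESeq2, with library totals alone and with only the groups compared. GATA3 had 5.98 and 13.7 CPM in low Wnt + TGFB, against 2.38 and 3.71 CPM in low Wnt, a call lost without low Wnt replicate 1 or low Wnt + TGFB replicate 2. Genes of surface ectoderm and placodes rose at 4 of 9, or at 1 without low Wnt replicate 2 and 2 without low Wnt + TGFB replicate 2. Among them TFAP2C had 11.5 and 16.5 CPM in low Wnt + TGFB, against 3.59 and 4.48 CPM in low Wnt. ISL1, a factor of sensory neurons and amnion, had 0.711 and 1.46 CPM in low Wnt + TGFB, against 0 CPM in each library of low Wnt, or 35 reads in low Wnt + TGFB and 0 in low Wnt. Against a floor of 3 reads over the low Wnt group it was at least 12.4-fold higher.

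Readouts of other signals changed as well. BMP and SMAD1/5 targets rose at 7 of 13 and fell at 1, with a median of 1.07. The 1 fall was lost with DESeq2, with library totals alone, with only the groups compared and without low Wnt replicate 1 or either low Wnt + TGFB replicate. Among the rises, ID4 and ID1, members of the ID family of inhibitors of differentiation, rose by 1.34 ± 0.15 and 1.07 ± 0.27. Their relatives ID2 and ID3, named after their values were seen, changed little in summed reads. ID2 had 5964 reads in low Wnt + TGFB and 5686 in low Wnt, and ID3 had 6730 and 6995. The ID1 call was lost without low Wnt replicate 2 or low Wnt + TGFB replicate 2, and 4 of the 7 were left without low Wnt + TGFB replicate 2. BMP2 had 45.9 and 72.7 CPM in low Wnt + TGFB, against 14.6 and 16.1 CPM in low Wnt (1.95 ± 0.19, adjusted p = 8.0e-07). BMP7 fell by 0.68 ± 0.09, and the antagonist GREM1 had 1.49 and 2.28 CPM in low Wnt + TGFB, against 0.305 and 0.179 CPM in low Wnt. FGF and ERK response genes rose at 8 of 13 and fell at 0, with a median of 1.5. ETV4, an ETS factor induced by FGF, had 25 and 32.6 CPM in low Wnt + TGFB, against 3.47 and 4.25 CPM in low Wnt (2.90 ± 0.19, adjusted p = 1.4e-08). SPRY4, a feedback inhibitor, had 33.2 and 44.1 CPM in low Wnt + TGFB, against 5.06 and 4.78 CPM in low Wnt (2.98 ± 0.23, adjusted p = 7.0e-08). The receptor FGFR3, high in neural progenitors, had 273 and 309 CPM in low Wnt + TGFB, against 1038 and 1063 CPM in low Wnt (-1.85 ± 0.11, adjusted p = 6.2e-09). Wnt targets rose at 5 and fell at 2 of 17. AXIN2, the usual reporter of beta-catenin, had 57.3 and 76.5 CPM in low Wnt + TGFB, against 64.4 and 78.9 CPM in low Wnt, and LEF1 had 13.7 and 13.5 CPM in low Wnt + TGFB, against 13.9 and 12.7 CPM in low Wnt; neither passed. Both SP5 and DKK1, genes of mesendoderm as well, did. SP5 had 29.5 and 54.4 CPM in low Wnt + TGFB, against 1.34 and 1.97 CPM in low Wnt, and DKK1 had 16.2 and 17.7 CPM in low Wnt + TGFB, against 1.04 and 1.55 CPM in low Wnt. Among retinoic acid genes CRABP1, a binding protein, had 404 and 374 CPM in low Wnt + TGFB, against 1318 and 1161 CPM in low Wnt (-1.67 ± 0.12, adjusted p = 2.2e-08), and RARB, a receptor and target, fell by 1.62 ± 0.15. Of that list, 5 of 14 rose and 3 fell, a called share of 57.1%. That share was 41.2% among Wnt targets and 43.8% among YAP and TEAD targets, beside 26.0% over all genes. YAP and TEAD targets were called at 7 of 16, 3 higher, with ANKRD1 at 1.89 ± 0.23, and 4 lower, with AJUBA at -1.21 ± 0.09; 1 rise was left without low Wnt replicate 1 and 1 without low Wnt + TGFB replicate 2.

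Cell cycle genes shifted by small amounts. Mitotic genes fell at 11 of 16 and rose at 0, with a median of -0.36; CCNB2 fell by 0.67 ± 0.11. This count was 4 without low Wnt replicate 1, 3 without low Wnt + TGFB replicate 2 and 7 with library totals alone. DNA replication genes rose at 5 of 16, of which 1 was left without low Wnt replicate 1 and 1 without low Wnt + TGFB replicate 2. The called share of the replication genes was 31.2%, beside 26.0% called and 13.7% called higher over all genes. PMAIP1, the cell death gene NOXA, had 99.7 and 91.7 CPM in low Wnt + TGFB, against 4.93 and 5.26 CPM in low Wnt (4.23 ± 0.14, adjusted p = 8.7e-12), and hESC had 126 and 111 CPM. Of the other p53 targets and cell cycle inhibitors, 6 of 14 were called. With PMAIP1 the called share of that list was 46.7%, beside 26.0% over all genes. Genes of the ATF4 amino acid response rose at 8 of 14 and fell at 1, with SLC7A5, an amino acid transporter, rising by 1.34 ± 0.18 and VLDLR, a lipoprotein receptor, falling by 1.00 ± 0.14. Of glycolysis genes 3 of 14 rose and 3 fell, with 1 fall left on leaving out any 1 of the 4 libraries. The called share of the glycolysis genes was 42.9%, beside 26.0% over all genes. The glucose transporter SLC2A3 had 1144 and 1402 CPM in low Wnt + TGFB, against 527 and 602 CPM in low Wnt (1.17 ± 0.13, adjusted p = 4.7e-06). Another, SLC2A1, had 125 and 169 CPM in low Wnt + TGFB, against 293 and 347 CPM in low Wnt (-1.12 ± 0.14, adjusted p = 1.4e-05). Cholesterol and fatty acid genes were called at 4 of 14, 1 higher and 3 lower, a share of 28.6% near the 26.0% over all genes, with HMGCS1 falling by 0.61 ± 0.12. Without low Wnt + TGFB replicate 2, 0 rises and 1 fall were left, and with only the groups compared there were 5 falls.

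**Figure D4:**
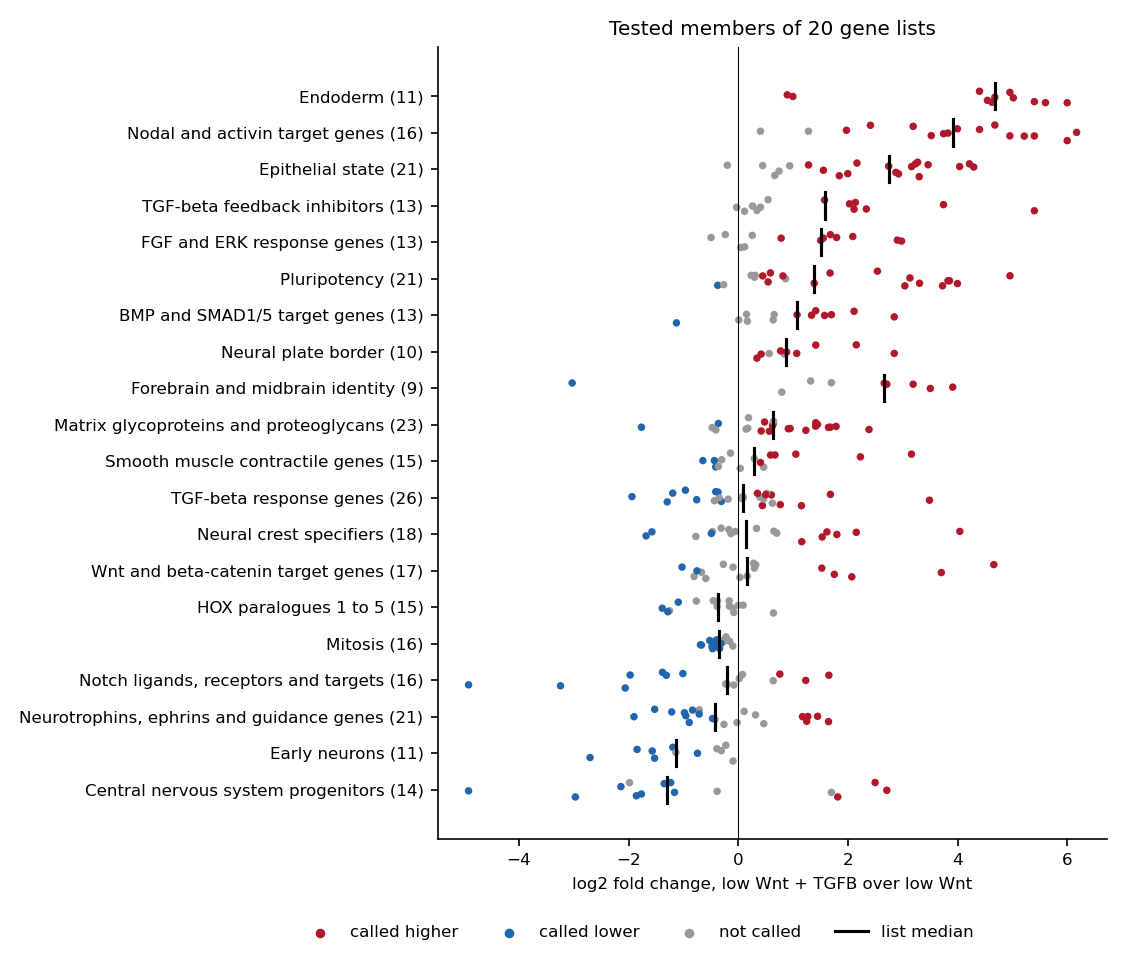
Log2 fold change of low Wnt + TGFB over low Wnt for the tested members of 20 gene lists (points, spread vertically to be seen; red called higher, blue called lower, grey not called; black bar the list median; number tested in brackets). Endoderm, nodal and activin targets and epithelial genes lie to the right, with medians of 4.68, 3.91 and 2.74, and neurons and neural progenitors to the left, at -1.14 and -1.29.

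Among the steepest changes outside these lists, TBX3 (chr12:114670254-114684164), a T-box factor of stem cells and several early tissues, had 9.96 and 17.8 CPM in low Wnt + TGFB, against 0.0609 and 0.299 CPM in low Wnt (6.2 ± 0.53, adjusted p = 3.6e-07). S100A14, an epithelial calcium-binding protein, had 15.2 and 28.8 CPM in low Wnt + TGFB, against 0.305 and 0.299 CPM in low Wnt. RAB17, an epithelial trafficking GTPase, had 26.5 and 42.9 CPM in low Wnt + TGFB, against 0.609 and 1.26 CPM in low Wnt. RBM47, an RNA-binding protein of endoderm, had 12.5 and 18.9 CPM in low Wnt + TGFB, against 0.609 and 0.478 CPM in low Wnt. RAB17 and RBM47 were higher still in hESC, at 75.6 and 83.6 CPM and 104 and 97.7 CPM, whereas S100A14 was at 1.7 and 0.933 CPM there. CST1, a cystatin, EPSTI1 and FAM20A rose by 5.09, 5.45 and 4.98. Of the falls, IGF2 (chr11:2129112-2149603), the fetal growth factor, had 0.427 and 0.586 CPM in low Wnt + TGFB, against 11.6 and 10.2 CPM in low Wnt (-4.39 ± 0.34, adjusted p = 1.4e-07); it overlaps INS-IGF2 in the annotation, so its count may be incomplete. IGFBP5, which binds it, had 215 and 163 CPM in low Wnt + TGFB, against 1413 and 1402 CPM in low Wnt (-2.90 ± 0.13, adjusted p = 4.1e-10). APLN, the apelin peptide, PRSS23, a secreted protease, ME3, a mitochondrial malic enzyme, ATP2C2 and TPPP3 fell by 2.90 to 3.45. NDE1 was called lower, but its low Wnt libraries stood at 2.62 and 34.5 CPM, so replicate 2 alone carried the difference, and the call was lost without that library or without low Wnt + TGFB replicate 2. It is listed on 2 contigs and overlaps MYH11 on the opposite strand.

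At the higher dose, TGF-beta 1 moved fewer genes: 1170 (7.25%) passed, 606 (3.75%) higher and 564 (3.49%) lower, against 4196 at the lower dose. The difference between the doses was itself called at 1905 genes (11.8%), 979 (6.06%) with the larger log2 fold change at the lower dose and 926 (5.73%) with the smaller. That count of 1905 became 1251 without low Wnt + TGFB replicate 2. The direction of the response differed at 196 genes that passed at both doses in opposite directions with the difference called, 94 of them higher and 102 lower at the lower dose. VCAM1 had 13.8 and 15.2 CPM in high Wnt + TGFB, against 5.24 and 5.57 CPM in high Wnt, a change of 1.42 ± 0.15, opposite to its fall at the lower dose. IGF2 and NR2F1 likewise rose with TGF-beta 1 at the higher dose, by 1.34 ± 0.22 and 3.63 ± 0.23. SPRY4 fell there by 0.77 ± 0.19. SKIL and FOXH1 were at 0.16 ± 0.19 and -0.47 ± 0.20 there, and their difference between doses passed, with adjusted p of 0.00012 and 1.4e-06. PMEPA1 rose at both doses (1.67 ± 0.26 at the higher), and its difference did not pass (adjusted p = 0.29). LEFTY2 rose at the higher dose (2.75 ± 0.16). Of the 11 endoderm genes, 1 passed at the higher dose, GATA4, at 3.67 and 2.64 CPM in high Wnt + TGFB, against 0.249 and 0.275 CPM in high Wnt. The difference between doses passed at 2 of the 11. SOX17 had 0 CPM in each library of high Wnt + TGFB, against 0 and 0.0688 CPM in high Wnt, too few reads for its difference to pass (adjusted p = 0.16).

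**Figure D5:**
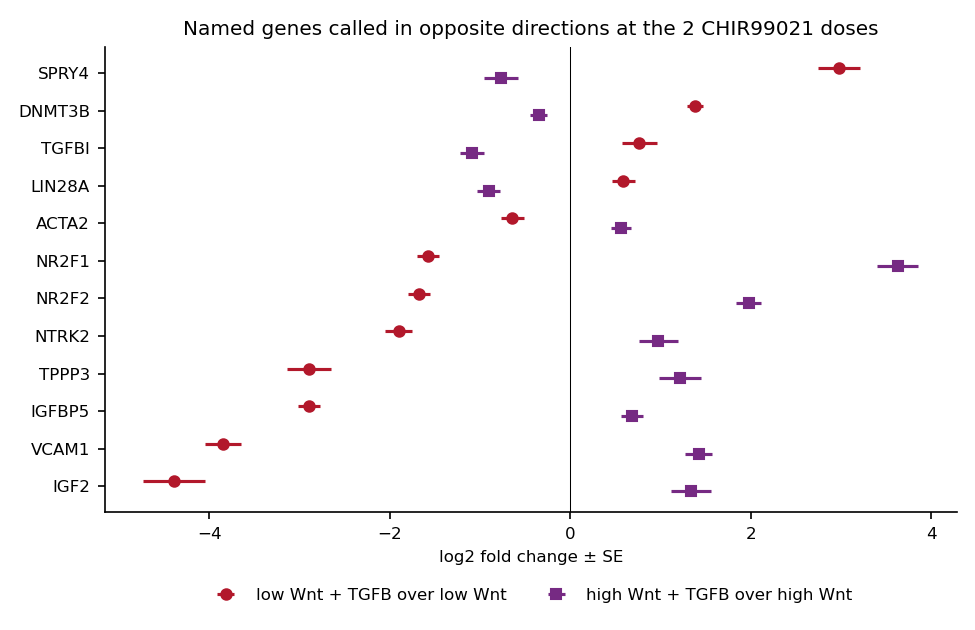
Log2 fold change ± SE by TGF-beta 1 at the lower CHIR99021 dose (circles) and the higher (squares) for 12 named genes called in opposite directions at the doses. VCAM1, IGF2, NR2F1 and IGFBP5 lie left of 0 at the lower dose and right of it at the higher, and SPRY4 and DNMT3B the reverse.

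The inhibitor SB431542 at the lower dose was compared with the same low Wnt libraries, so its changes are not independent of those of TGF-beta 1 and are set beside them only as values. NODAL had 0.061 and 0.0524 CPM, TDGF1 0.427 and 0.262 CPM, CDH1 0.305 and 0.472 CPM and EPCAM 1.28 and 2.36 CPM in low Wnt + SB4, below the low Wnt libraries except for NODAL, which was near 0 in both groups. OTX2 had 0.671 and 0.262 CPM and NANOG 0.061 and 0 CPM there. VCAM1 and DBX1, both lower with TGF-beta 1, had 66.5 and 67.1 CPM and 42 and 54.9 CPM with the inhibitor, above the low Wnt libraries. The order was not the same at every gene: NTRK2 had 280.5 and 291 CPM and DLL1 8.35 and 7.34 CPM in low Wnt + SB4, between the low Wnt + TGFB and low Wnt libraries.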

How the data were processed

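RNA was poly(A)-selected and made into stranded libraries, per the labels' protocols. The submitters' processing notes name bcl2fastq, HISAT2 2.2.0, SAMtools 1.10 and featureCounts 2.0.0 with hg38, and the values analysed are the raw counts per gene as the authors deposited them; whether counting used strand is not given in the sources used here. Of 26485 genes, 4943 had 0 reads in all 14 libraries. The 16149 genes that passed filterByExpr were fitted in R 4.3.3 with edgeR 4.0.16 (TMM scaling, quasi-likelihood test, 1 mean for each of 7 groups of 2 libraries, 7 residual degrees of freedom), with Benjamini-Hochberg adjustment over all of them and calls at 0.05. The difference between doses was a contrast in the same fit. SE is the absolute log2 fold change divided by the square root of F. The chi-square of counts between the 2 libraries of a group, over its degrees of freedom, was 7.67 in low Wnt + TGFB and 7.45 in low Wnt, above sampling noise. Each library was counted as a sample. This spread does not tell separate cultures from separate preparations of 1 culture.

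The comparison, its gene lists (49 lists, 672 genes, 614 tested) and the tests were chosen with earlier results of these data known. Genes named are the 12 steepest called changes per direction at 10 CPM or more in the higher group with groups that do not overlap (protein-coding-style symbols), the up to 5 genes of each list with the smallest p, a panel of marker genes, and the members of the TGF-beta pathway lists. For the difference between doses they are the steepest and panel genes called in opposite directions with the difference called. SKIL, FOXH1, PMEPA1, LEFTY2, GATA4 and SOX17 are given at the higher dose outside that rule. Lists are described by counts and medians. Each count stands beside 26.0% called over all genes, 13.7% higher and 12.2% lower. Some genes are in more than 1 list, so the results of such lists are not independent. Where a group had 0 reads over its libraries, 3 counts served as the floor; for 1 to 3 reads the ratio has an exact 95% interval for counting error only. The fit was tested on simulated data: for this comparison, on 15678 genes, 46.3%, 68.7% and 89.4% of genes changed by 1.5, 2 and 4 times were recovered. There were 11 false calls. Only 67, 67 and 66 genes were changed, and all other genes had the same mean in every group. Far more genes were called in the data, so these rates may not hold for it. Alternatives were DESeq2 1.42.0, other scalings, no filter, only the groups compared, a replicate block, a fold threshold and leaving out each library; a fit without hESC was added after seeing the data. Promoter windows are from a RefSeq table of GRCh38.p14. Figures were drawn with matplotlib 3.10.9. Single-gene results for some list members are not reported here.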

Additional observations from a re-analysis of the deposited data

Results flagged for a closer look

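The response to TGF-beta 1 ran in opposite directions at the lower and higher CHIR99021 dose for 196 genes, each called at both doses and in the test of the difference (edgeR, adjusted p under 0.05). Of the named genes 12 were among them, with log2 fold changes given here ± SE.

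Of these, 8 fell at the lower dose and rose at the higher. VCAM1 changed by -3.85 ± 0.20 at the lower dose and 1.42 ± 0.15 at the higher, a difference of -5.27 ± 0.25. IGF2 changed by -4.39 ± 0.34 at the lower dose and 1.34 ± 0.22 at the higher, a difference of -5.73 ± 0.41. NR2F1 changed by -1.57 ± 0.12 at the lower dose and 3.63 ± 0.23 at the higher, a difference of -5.20 ± 0.26. Its relative NR2F2 changed by -1.68 ± 0.12 at the lower dose and 1.98 ± 0.14 at the higher, a difference of -3.66 ± 0.19. The tubulin-binding gene TPPP3 changed by -2.90 ± 0.24 at the lower dose and 1.21 ± 0.24 at the higher, a difference of -4.11 ± 0.34. IGFBP5 changed by -2.90 ± 0.13 at the lower dose and 0.68 ± 0.12 at the higher, a difference of -3.58 ± 0.17. The neurotrophin receptor NTRK2 changed by -1.9 ± 0.15 at the lower dose and 0.97 ± 0.21 at the higher, a difference of -2.87 ± 0.26. ACTA2 changed by -0.65 ± 0.13 at the lower dose and 0.56 ± 0.11 at the higher, a difference of -1.21 ± 0.17.

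The reverse held for 4. SPRY4 changed by 2.98 ± 0.23 at the lower dose and -0.77 ± 0.19 at the higher, a difference of 3.75 ± 0.30. TGFBI changed by 0.77 ± 0.19 at the lower dose and -1.09 ± 0.13 at the higher, a difference of 1.85 ± 0.23. DNMT3B changed by 1.38 ± 0.09 at the lower dose and -0.35 ± 0.09 at the higher, a difference of 1.74 ± 0.13. The pluripotency-linked RNA-binding gene LIN28A changed by 0.59 ± 0.13 at the lower dose and -0.90 ± 0.13 at the higher, a difference of 1.49 ± 0.18. The doses also differed in the levels without TGF-beta 1. SPRY4 had 61.1 and 68.8 CPM in high Wnt, against 5.06 and 4.78 CPM in low Wnt. NR2F1 had 1.16 and 0.894 CPM in high Wnt, against 107 and 100.3 CPM in low Wnt. The part of these levels in the differences was not tested.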

How the results depend on the processing

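The 4196 calls were 3766 with DESeq2, 4152 with RLE scaling, 4170 with library totals alone, 4592 with no filter, 4136 with only the groups compared in the fit and 4572 without the hESC libraries, and in none of these or the following settings did a gene called in both have the opposite sign. A minimum log2 fold change of 1 left 1654 genes, 1199 higher and 455 lower, and 1064 for the difference between doses. Leaving out 1 library in turn gave 2347 to 3564 calls (lowest without low Wnt + TGFB replicate 2), 1328 to 2092 higher and 1019 to 1472 lower, and 1251 to 1731 for the difference between doses. Such fits leave 1 group with a single library, which is assumed to vary like the others. They lost calls over all genes, so fewer calls within a list are not by themselves particular to that list. The replicate numbers are shared by the groups, but no label says that they pair libraries, and the deviations of same-numbered libraries correlated at 0.084; with a replicate block 4561 genes were called (2353 higher, 2208 lower) and 2129 for the difference.

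Some genes that did not pass took the other sign. These were 0.00046 for ZFYVE9 and 0.0051 for TRIM33 with DESeq2, 0.00054 for ZFYVE9 and 0.0050 for TRIM33 with RLE scaling, 0.0011 for TRIM33 with only the groups compared, and 0.030 for SNAI2, 0.00032 for HOXB4, 0.067 for ZFYVE9, 0.071 for TRIM33, 0.041 for CREBBP, 0.054 for SMURF1 and 0.035 for LTBP1 with library totals alone. Over the fits without 1 library the values ran from -2.03 to 0.84 for HOXB4, -0.58 to 0.19 for FGF8, -3.60 to 0.61 for HOXA10, -0.32 to 0.12 for AXIN2, -0.036 to 0.094 for LEF1, -4.28 to 2.29 for HOXA9, -0.065 to 0.028 for ZFYVE9, -0.090 to 0.028 for SMURF1, -0.11 to 0.031 for LTBP1, -0.59 to 1.48 for HOXB8, -3.59 to 1.57 for HOXC10, -0.076 to 0.017 for CREBBP, -0.18 to 0.027 for LTBP4, -0.019 to 0.069 for ITGAV, -0.20 to 0.11 for SNAI2, -1.29 to 0.16 for HOXC4, -1.75 to 0.015 for LOXL4, -0.38 to 0.12 for INHA and -0.035 to 0.038 for TRIM33. LOXL4 and HOXC4 passed at the low end of their range, without low Wnt + TGFB replicate 1. The cause was not tested. Genes below 1 CPM rest on few reads, and differences in them were often not detectable at this depth.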
